A study of Mus musculus with 12 samples.

Results

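The 10 genes described here encode cytokines of 3 kinds, and they were picked by name as rows of the 2 deposited count tables, which list 49315 gene identifiers. Il6, Lif, Il11 and Clcf1 belong to the IL-6 family (4 genes), Il1a, Il1b, Il1rn and Il33 to the IL-1 family (4 genes), and Csf1 and Il34 are the ligands of the CSF1 receptor (2 genes). All 10 were found in both tables, and 9 passed the filter on low counts. Il1b did not, so it was not tested.

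RNA-seq was performed on primary mouse adult fibroblasts (MAFs) taken from the ears of adult female mice, which were either wild-type C57BL6/J (WT) or Bmal1 -/- (KO) and so without the clock factor BMAL1. Senescent cells had received 20 Gy of X-rays and were then cultured for weeks, and control cells had a sham exposure. The time in culture of the control cells is not given, so it may differ from that of the senescent cells. There were 3 libraries in each of the 4 groups (control and senescent cells of WT and of KO). All of them, controls included, were grown in 10% fetal bovine serum at 3% O2, given 100 nM dexamethasone to align their clocks and collected 12 h afterwards. Dexamethasone is a glucocorticoid, a class of drug known to repress several of these cytokines, and no group went without it. No source states that the 3 libraries of a group came from separate cultures or animals, so the p-values measure only the spread between these libraries, which may be technical. The KO mice carried the deletion in all their cells, so it was not made in culture.

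Senescent fibroblasts are known to release a mixture of cytokines, proteases and growth factors called the senescence-associated secretory phenotype (SASP). IL-6, LIF, IL-11 and the CLCF1 complex each bind their own receptor chain and then share the signalling chain gp130, made by Il6st, which activates JAK kinases and STAT3. IL-1 alpha and IL-1 beta bind the receptor IL1R1, and IL-33 binds the related receptor ST2. The product of Il1rn occupies IL1R1 without signalling and is the natural antagonist of IL-1. CSF1 and IL-34 act on CSF1R, the receptor that macrophages and their precursors depend on.

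Library totals lay between 23923030 and 31736083 counts. Levels are given as CPM, the count of a gene in 1000000 counts of its library after TMM scaling (trimmed mean of M-values), and 3 counts, taken as the detection floor, equalled 0.101 to 0.135 CPM. A gene passed when edgeR's quasi-likelihood test gave an adjusted p under 0.05 over all 17416 genes tested, and it was called when it also changed by more than 1 on the log2 scale. Arntl, the annotation's name for Bmal1, was at 29.8 to 37.3 CPM in WT libraries, at 11.8 to 15.2 CPM in KO control and at 25.3 to 27.4 CPM in KO senescent libraries. No KO library reached the lowest WT library, but reads of the gene remained, and Arntl rose 2.02-fold with senescence in KO cells (edgeR adjusted p 1.96e-09). A count over the whole gene also takes reads from exons outside a deletion. The 8 fibroblast markers were abundant in every library (summed to 6853 CPM or more), but they changed with senescence, with 5 higher and 3 lower in WT and 3 higher and 4 lower in KO cells. Of all genes tested, 29.2% passed as higher and 27.0% as lower in WT, and 28.5% and 28.6% in KO cells. Of 7 keratinocyte markers, Krt5, Krt10 and Dsp passed as higher in senescent cells of both genotypes. Trp63 went the other way in KO cells, where it passed as lower (means of 8.39 CPM in KO control and 3.36 CPM in KO senescent cells). The 7 summed to at most 15.2 CPM in WT control and 12.7 CPM in KO control libraries, and to 20.5 to 24.0 CPM in WT senescent and 18.7 to 20.3 CPM in KO senescent libraries, with Krt14, Krt1 and Epcam near 0. Markers of chondrocytes, the cells of ear cartilage, were abundant too. Their 5 genes summed to 6892 to 8524 CPM in WT control, 1761 to 2042 CPM in WT senescent, 4502 to 6141 CPM in KO control and 552 to 636 CPM in KO senescent libraries, and 5 of 5 passed as lower in senescent cells of each genotype. In such bulk samples, fewer cells of a type and less RNA per cell cannot be told apart, and the part of these cell types in the results for the cytokines was not tested.

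The study asks about AP-1, the FOS and JUN dimer that binds the letters TGACTCA, so the starts of the cytokine genes were searched for these letters. RefSeq windows on GRCm38.p6 of 300 bases, 250 before and 50 after a transcription start, were at hand for 8 of the 10 genes, with 12 windows in all. Clcf1 and Il34 had none. The letters TGACTCA, on either strand, stood in a window of 5 of the 8 genes (Il6, Lif, Il11, Il1a and Il1rn), where 5.95% of 27025 genes with a window held them. The E-box CACGTG, the letters that BMAL1 with CLOCK is known to bind, stood in none of the 8 (8.09% of all genes). The cyclic AMP response element TGACGTCA also stood in none (2.03%). A form of the NF-kB site (GGG, any 2 letters, then TTTCC) stood in windows of Il6, Il1rn and Csf1 (1.89% of all genes), and TTGCNNAA, a form of the C/EBP site, in windows of Il6 and Il33 (12.2%). All were searched on both strands, and no 2 matches overlapped within a window (the NF-kB letters of windows 2 and 3 of Il1rn are 1 site, since these windows overlap). A match is a run of letters and not a measured binding site, and a window without one says only that the letters were not in these 300 bases. The study's own BMAL1 ChIP-seq (sequencing of DNA bound by the protein) named Lif among genes with more BMAL1 binding in senescent cells. Where that binding lies was not examined here.

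The 250 bases before the start are printed for the 4 genes that held the AP-1 letters and changed with senescence, as RefSeq sequence on GRCm38.p6, 5′ to 3′ on the gene's strand, with the AP-1 letters in capitals. The Lif window is chr11:4257318-4257567 on the plus strand, with the match beginning 228 bases before the start. That of Il11 is chr7:4778142-4778391 on the minus strand (window 1 of 2, match at −98). That of Il1rn is chr2:24336610-24336859 on the plus strand (window 1 of 3, match at −141), and that of Il6 is chr5:30012864-30013113 on the plus strand (match at −249). Capitals that read TGAGTCA are the same letters read from the opposite strand.
Lif: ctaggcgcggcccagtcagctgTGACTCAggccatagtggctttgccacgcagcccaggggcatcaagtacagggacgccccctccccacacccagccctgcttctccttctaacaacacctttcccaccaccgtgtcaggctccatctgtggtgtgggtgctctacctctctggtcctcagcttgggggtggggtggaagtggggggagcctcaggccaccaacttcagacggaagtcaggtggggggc
Il11: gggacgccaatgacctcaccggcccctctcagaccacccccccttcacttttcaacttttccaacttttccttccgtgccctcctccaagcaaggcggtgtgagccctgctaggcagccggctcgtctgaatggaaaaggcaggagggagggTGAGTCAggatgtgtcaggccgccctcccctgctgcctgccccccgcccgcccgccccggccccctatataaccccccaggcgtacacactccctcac
Il1rn: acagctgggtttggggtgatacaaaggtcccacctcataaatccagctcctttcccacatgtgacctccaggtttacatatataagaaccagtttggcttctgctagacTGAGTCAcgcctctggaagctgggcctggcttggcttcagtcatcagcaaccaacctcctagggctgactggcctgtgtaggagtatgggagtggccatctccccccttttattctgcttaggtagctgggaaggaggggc
Il6: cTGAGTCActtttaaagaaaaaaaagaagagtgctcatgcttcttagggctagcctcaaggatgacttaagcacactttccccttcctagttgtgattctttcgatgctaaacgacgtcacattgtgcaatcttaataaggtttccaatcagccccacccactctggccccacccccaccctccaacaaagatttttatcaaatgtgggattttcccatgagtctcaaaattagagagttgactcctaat
Lif and Il11 rose with senescence, Il6 fell, and Il1rn fell in KO cells. Il1a, the other gene with the letters, passed with senescence in neither genotype. Any part of AP-1 in these changes was not tested.

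**Figure D1:**
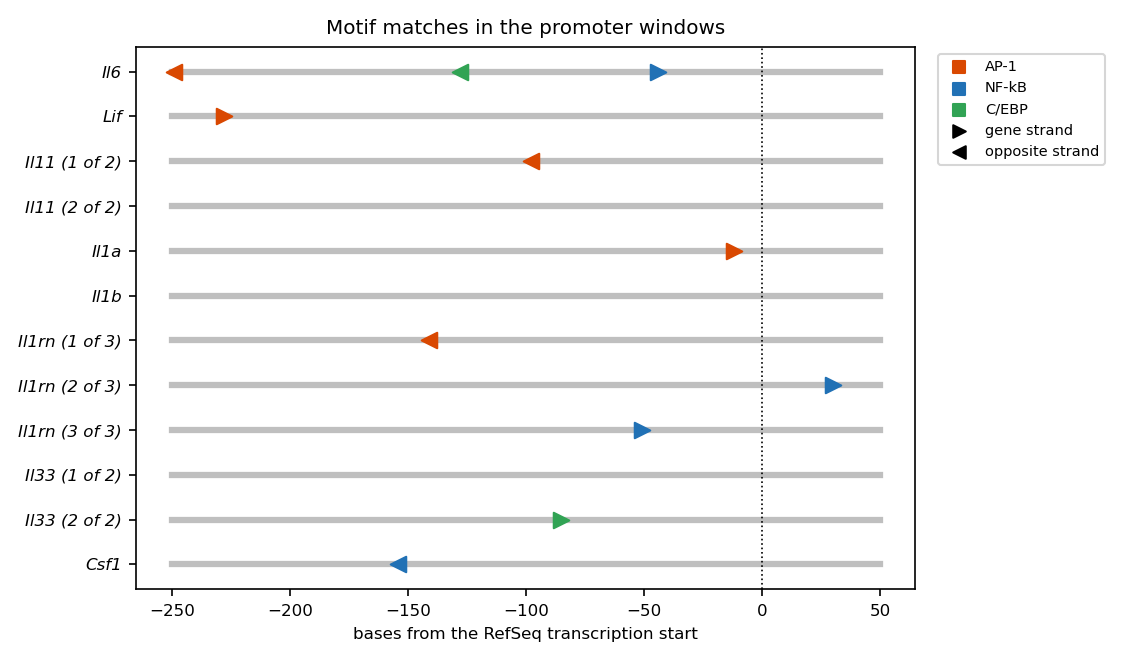
Matches of AP-1, NF-kB and C/EBP letters (triangles, pointing right on the gene strand and left on the opposite strand) in the 12 RefSeq windows of 8 cytokine genes, by distance in bases from the transcription start (dotted line). The 5 AP-1 matches lie between −249 and −12, and no window holds more than 1 of them.

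Per kilobase of exon, Csf1 was the most abundant of the 10 transcripts. On this scale (CPM per kilobase, mean over the 12 libraries) Csf1 was at 140, Clcf1 at 18.0, Il11 at 9.74, Lif at 4.47, Il34 at 3.52, Il1rn at 3.43 and Il6 at 2.24. Il33 at 0.325, Il1a at 0.149 and Il1b at 0.0271 were the lowest. Csf1 stood above 97.6 to 99.2% of tested genes in the 4 groups, and Clcf1 above 83.0 to 86.0%. Lif moved most within this order, from above 34.5% of tested genes in KO control to above 71.9% in KO senescent cells. Il6, a well known SASP gene, stood above 49.0% in WT control and above 35.8% in KO senescent cells.

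**Figure D2:**
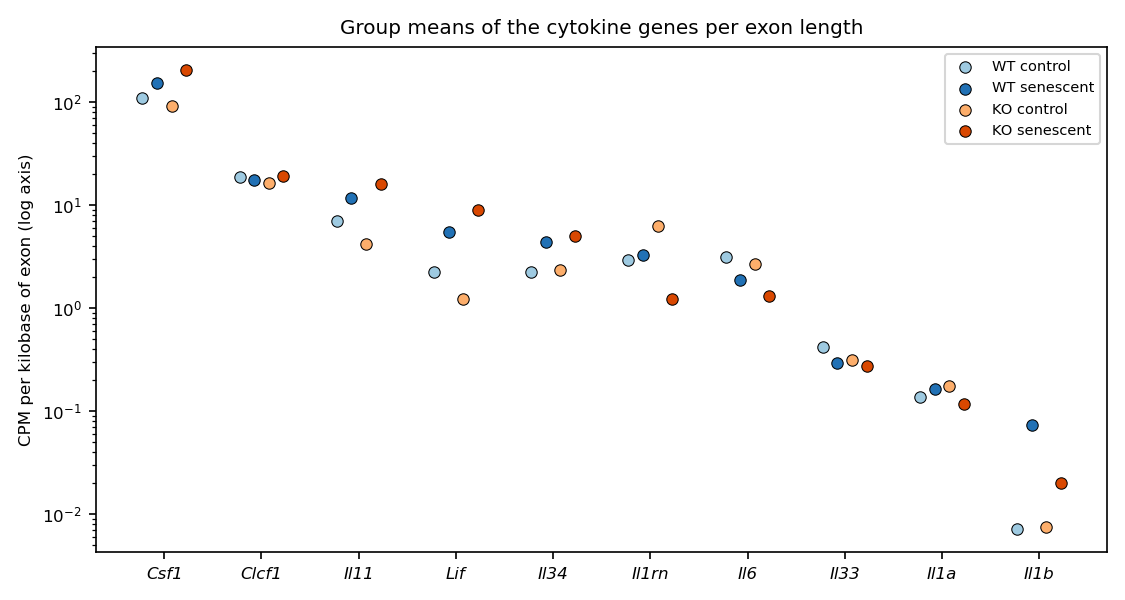
Group means (points, 3 libraries each) of the 10 cytokine genes in CPM per kilobase of exon on a log axis, ordered by their mean over the groups. Csf1 lies highest and Il1a and Il1b lowest in each group, while Lif, Il11 and Il1rn differ most between groups among the genes above 1.

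With senescence in WT cells, 4 members rose (Lif, Il11, Csf1 and Il34), 1 fell (Il6) and 4 did not pass. Of 17416 genes tested, 56.2% passed in this comparison, 29.2% higher and 27.0% lower, so a share of 5 in the 9 members tested was close to the background. Only Lif was called (17.4% of genes were). Without WT control 2 or WT senescent 1 there were 2 called, as Il34 then also went past a log2 change of 1. The median log2 change of the 9 was 0.24, against 0.02 for all genes.

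With senescence in KO cells, 5 members rose (Lif, Il11, Clcf1, Csf1 and Il34) and 2 fell (Il6 and Il1rn), and Il1a and Il33 did not pass. Among all genes 57.1% passed, 28.5% higher and 28.6% lower. The called were 6 of 9, all but Clcf1 among those that passed, where 18.8% of all genes were called. Without KO senescent 3 there were 4 called, because Il6 (log2 −0.92) and Il34 (0.98) fell short of a change of 1. The median of the 9 was 0.20, beside −0.00 for all genes.

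The change with senescence differed between genotypes for 5 of the 9 members, tested as the interaction (the change in KO cells less that in WT cells). It was higher in KO cells for Lif, Il11, Clcf1 and Csf1 and lower for Il1rn, while of all genes 20.9% passed (9.24% higher, 11.7% lower). Lif, Il11 and Il1rn were called, against 3.66% of all genes. The comparisons share libraries, so their counts are not separate evidence.

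**Figure D3:**
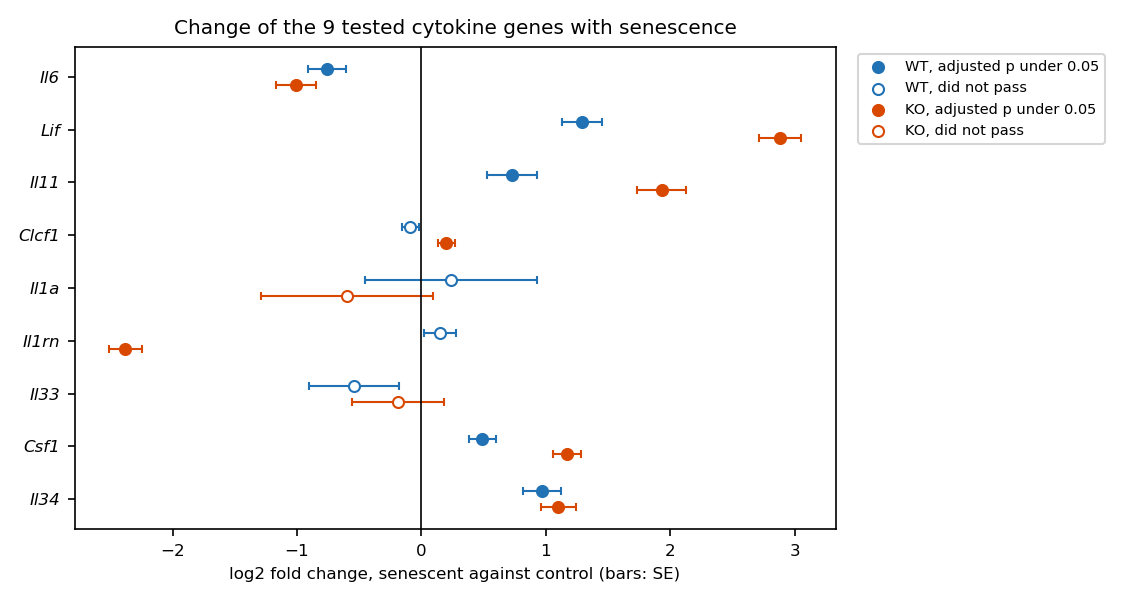
Log2 fold change of the 9 tested cytokine genes, senescent against control, in WT (blue) and KO cells (orange), with SE as bars and filled points for an adjusted p under 0.05. Lif, Il11 and Csf1 lie farther to the right in KO cells, Il1rn lies at −2.38 in KO and at 0.15 in WT cells, and Il6 lies left of 0 in both.

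Lif (ENSMUSG00000034394, GRCm38 chr11:4257557-4272514, plus strand) encodes leukaemia inhibitory factor, known for holding mouse stem cells undifferentiated. Its WT control libraries held 9.44, 10.4 and 9.48 CPM, and it was at 28.2, 21.9 and 21.5 CPM in WT senescent libraries. It was at 6.60, 3.94 and 5.41 CPM in KO control and at 37.6, 33.8 and 45.2 CPM in KO senescent libraries. The 4 groups did not overlap, and they rose in the order KO control, WT control, WT senescent, KO senescent. In WT cells Lif rose by 1.29 on the log2 scale (SE 0.16, edgeR adjusted p 8.65e-06), or 2.44-fold. In KO cells it rose by 2.88 (SE 0.17, edgeR adjusted p 2.74e-09), or 7.38-fold, and the difference of 1.60 passed (SE 0.23, edgeR adjusted p 0.000401). The larger rise had both a lower start and a higher end. KO control was below WT control (−0.89, edgeR adjusted p 0.00547) and KO senescent above WT senescent (0.70, edgeR adjusted p 0.00276). Each genotype is a table of its own, so genotype and handling of the tables cannot be told apart in such comparisons of KO with WT. All 5 comparisons of Lif passed, and each still passed without any 1 library.

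Il11 (ENSMUSG00000004371, chr7:4772373-4782859, minus strand) encodes IL-11, a gp130 cytokine that fibroblasts are known to release and to answer with matrix production. Its WT control libraries were at 12.2, 16.6 and 15.2 CPM and its WT senescent libraries at 29.5, 21.2 and 22.1 CPM. KO control libraries were at 11.6, 8.24 and 6.39 CPM and KO senescent libraries at 34.2, 30.5 and 35.4 CPM. Its groups lay in the same order as those of Lif, again without overlap. Il11 rose in WT by 0.73 (SE 0.20, edgeR adjusted p 0.00843) and in KO by 1.93 (SE 0.20, edgeR adjusted p 9.57e-06), and the interaction was 1.20 (SE 0.28, edgeR adjusted p 0.0125). The neighbours in this order that belong to different genotypes were less firmly apart. KO control was below WT control by −0.74 with an edgeR adjusted p of 0.0446, which did not pass without any 1 of 8 libraries (WT control 2 or 3, WT senescent 3, KO control 2 or 3, or KO senescent 1, 2 or 3, up to 0.161). KO senescent against WT senescent was 0.46 with an edgeR adjusted p of 0.103, which passed without WT senescent 1, KO control 1 or KO control 3 (from 0.0254) and in 4 other settings.

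Il6 (ENSMUSG00000025746, chr5:30013114-30019981, plus strand) encodes IL-6, the founding gp130 cytokine. It went the other way from Lif and Il11. WT control libraries were at 7.84, 7.08 and 8.08 CPM, and WT senescent libraries at 4.01, 4.91 and 4.63 CPM. KO control libraries were at 6.28, 6.26 and 6.74 CPM, and KO senescent libraries at 2.93, 3.86 and 2.73 CPM. All senescent libraries were below all control libraries. Il6 fell by 0.76 on the log2 scale in WT cells (SE 0.15, edgeR adjusted p 0.000211) and fell by 1.01 in KO cells (SE 0.16, edgeR adjusted p 1.16e-05). The KO change was at the edge of the fold threshold and was under 1 in size without KO control 3, KO senescent 1 or KO senescent 3 (as small as −0.92), while its adjusted p passed in each. The interaction of −0.25 did not pass (SE 0.22, edgeR adjusted p 0.454), which does not show that the falls were equal. Among senescent cells KO was lower (−0.51, SE 0.16, edgeR adjusted p 0.0247), but this did not pass without WT senescent 2 or 3 or KO senescent 1 or 3 (up to 0.123). Among control cells the change was −0.25 with an edgeR adjusted p of 0.296.

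The balance of Lif and Il11 to Il6 therefore changed. Clcf1, the most abundant of the gp130 cytokine members per exon length in each group, is not part of these ratios. Per exon length, the ratio of Lif to Il6 was 0.673, 0.821 and 0.655 in WT control libraries and 3.93, 2.49 and 2.60 in WT senescent libraries. It was 0.587, 0.351 and 0.448 in KO control and 7.16, 4.89 and 9.24 in KO senescent libraries. Il6 thus exceeded Lif in all 6 control libraries and Lif exceeded Il6 in all 6 senescent libraries. For Il11 to Il6 the mean ratio was 2.25 ± 0.467 in WT control, 6.40 ± 1.91 in WT senescent, 1.60 ± 0.531 in KO control and 12.7 ± 3.06 in KO senescent cells (SD, n = 3).

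Clcf1 (ENSMUSG00000040663, chr19:4214238-4223490, plus strand) encodes cardiotrophin-like cytokine factor 1, a ligand of the gp130 receptors. It changed least among the gp130 cytokines. WT control libraries were at 70.8, 72.3 and 70.8 CPM, WT senescent libraries at 68.8, 64.8 and 66.6 CPM, KO control libraries at 68.3, 60.9 and 59.6 CPM and KO senescent libraries at 68.4, 68.3 and 80.4 CPM. The KO senescent mean was raised by replicate 3, and the other 2 libraries lay level with KO control 1. Clcf1 rose by 0.20 in KO cells (SE 0.07, edgeR adjusted p 0.0121), which did not pass without KO control 2, KO control 3 or KO senescent 3 (up to 0.12). In WT cells the change was −0.09 (edgeR adjusted p 0.232). The interaction of 0.30 (SE 0.09, edgeR adjusted p 0.0269) did not pass without any 1 of 6 libraries (WT control 1, WT senescent 2 or 3, KO control 2 or 3, or KO senescent 3, up to 0.0896). The exons of Clcf1 overlap those of 1 other annotated gene, and the use of strand in counting is not given, so its counts are uncertain to that extent. KO control (63.0 ± 4.70 CPM) and WT control (71.3 ± 0.876 CPM, SD, n = 3) were not shown to differ (edgeR adjusted p 0.0814), although the test passed without KO control 1 or KO senescent 3 (from 0.0194).

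**Figure D4:**
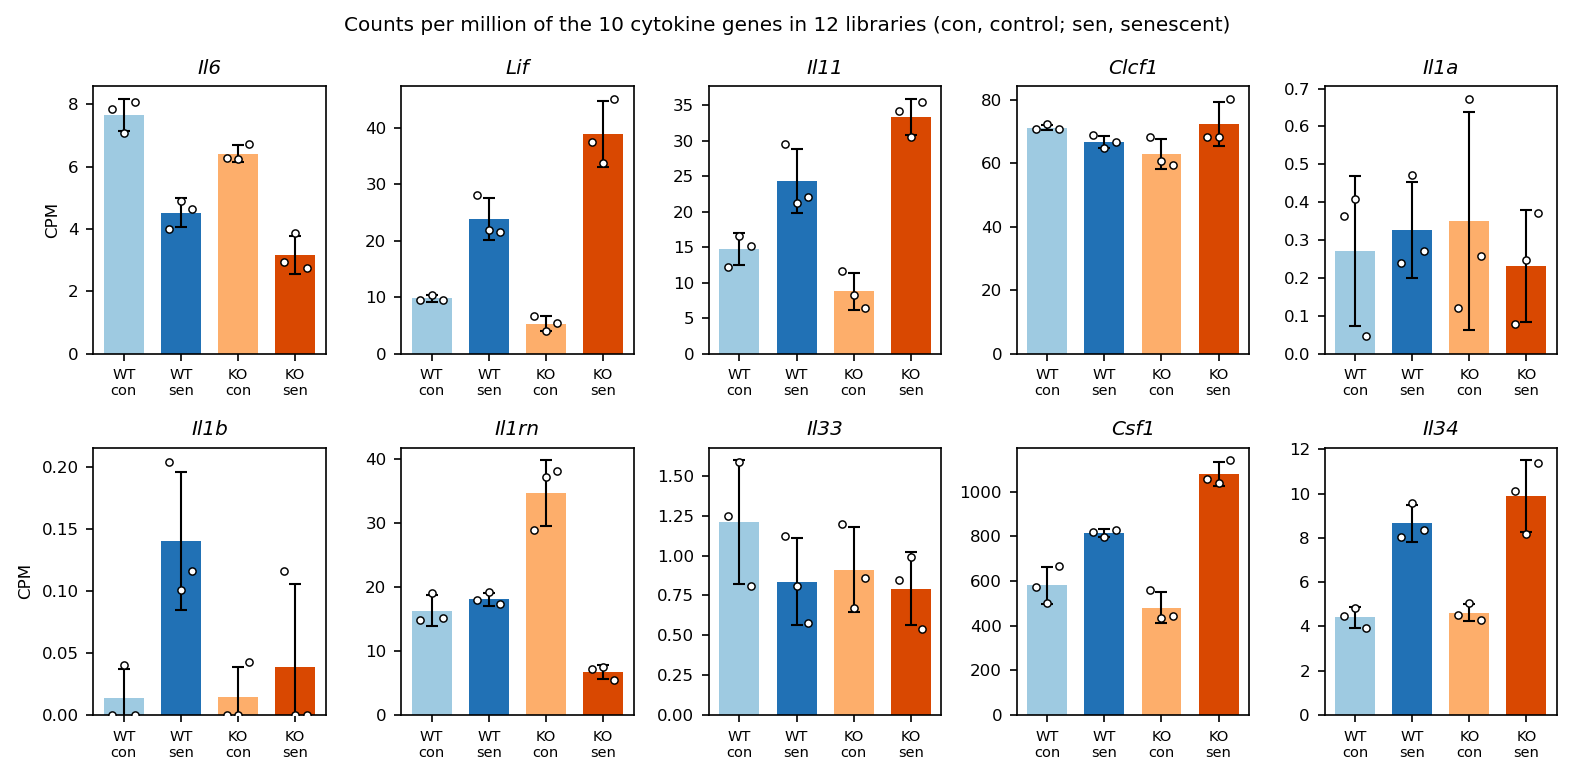
TMM-scaled CPM of the 10 cytokine genes in the 12 libraries (points), with group means (bars) and SD (error bars, n = 3), each panel on its own linear axis from 0. Lif, Il11 and Csf1 are highest in KO senescent cells, Il6 is lower in both senescent groups, and Il1rn is highest in KO control (28.9 to 38.2 CPM) and lowest in KO senescent cells (5.43 to 7.51 CPM).

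Among the IL-1 family only the antagonist was well expressed, and its response to senescence differed by genotype. Il1rn (ENSMUSG00000026981, chr2:24336853-24351494, plus strand) had WT control libraries at 14.8, 19.1 and 15.1 CPM and WT senescent libraries at 17.9, 19.2 and 17.3 CPM. These groups overlapped. In KO control libraries it was at 28.9, 37.2 and 38.2 CPM, above all WT libraries, and in KO senescent libraries at 7.17, 7.51 and 5.43 CPM, below all others. In WT cells the change was 0.15 (SE 0.13, edgeR adjusted p 0.327). In KO cells Il1rn fell by 2.38 on the log2 scale (SE 0.13, edgeR adjusted p 5.8e-11), a 5.19-fold fall, and the interaction was −2.53 (SE 0.18, edgeR adjusted p 2.89e-07). KO cells were higher than WT cells among controls by 1.09 (SE 0.12, edgeR adjusted p 1.02e-05) and lower among senescent cells by −1.44 (SE 0.14, edgeR adjusted p 8.12e-07). The interaction stayed between −2.66 and −2.40 when any 1 library was left out. RefSeq gives Il1rn 3 starts, and counts over the whole gene do not say which was used. The chondrocyte markers also fell more in KO than in WT cells (5 of 5 passed as lower in the interaction, where 11.7% of all genes did). Among control cells they had summed means of 7535 CPM in WT and 5426 CPM in KO. Their part in the result for Il1rn was not tested.

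The IL-1 agonists stayed near the floor. Il1a (ENSMUSG00000027399, chr2:129299610-129309972, minus strand) had 9, 10 and 1 counts in WT control, 7, 14 and 7 in WT senescent, 3, 20 and 6 in KO control and 2, 7 and 11 in KO senescent libraries. The groups overlapped, and neither senescence comparison passed (0.24, SE 0.69, edgeR adjusted p 0.789 in WT, and −0.60, SE 0.69, edgeR adjusted p 0.473 in KO). With an SE of this size, a change of 1 on the log2 scale was not detectable at this depth. Il1b (ENSMUSG00000027398, chr2:129364570-129371139, minus strand) had 0, 1 and 0 counts in WT control, 6, 3 and 3 in WT senescent, 0, 0 and 1 in KO control and 3, 0 and 0 in KO senescent libraries. The 3 WT senescent libraries thus each held more than any control library of either genotype, on at most 6 counts and with no test. Exons of Il1a and of Il1b each overlap 1 other annotated gene. Il33 (ENSMUSG00000024810, chr19:29925114-29960718, plus strand), a nuclear cytokine that damaged cells release, had WT control libraries at 1.25, 1.59 and 0.812 CPM and WT senescent libraries at 1.12, 0.807 and 0.578 CPM. It was at 1.20, 0.673 and 0.858 CPM in KO control and at 0.848, 0.992 and 0.540 CPM in KO senescent libraries. All 4 groups overlapped, and no comparison passed (−0.54, SE 0.36, edgeR adjusted p 0.22 in WT, and −0.19, SE 0.37, edgeR adjusted p 0.685 in KO).

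Both ligands of CSF1R rose in both genotypes. Csf1 (ENSMUSG00000014599, chr3:107741048-107760469, minus strand), which encodes macrophage colony-stimulating factor, had WT control libraries at 571, 502 and 665 CPM and WT senescent libraries at 819, 797 and 829 CPM. KO control libraries were at 559, 436 and 442 CPM and KO senescent libraries at 1057, 1039 and 1140 CPM. The control groups overlapped, while the 3 KO senescent libraries lay above all others. Csf1 rose in WT by 0.49 (SE 0.11, edgeR adjusted p 0.00183) and in KO by 1.17 (SE 0.11, edgeR adjusted p 1.46e-06), and the interaction was 0.68 (SE 0.15). The study named Csf1, from these libraries, among genes that changed in KO but not in WT senescent cells. Its methods required a log2 change over 1 in size, which the WT rise of 0.49 did not reach, although it passed here. The direction of Csf1 here is not independent evidence. Among senescent cells KO was higher by 0.40 (SE 0.11, edgeR adjusted p 0.0163), which did not pass without WT senescent 2 (0.0582) or KO senescent 3 (0.0883). Among controls the change of −0.28 did not pass (edgeR adjusted p 0.122), but it did without WT control 2 or KO control 1 (from 0.0053).

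Il34 (ENSMUSG00000031750, chr8:110741829-110805924, minus strand) encodes the other ligand, known from skin and brain, where it keeps resident macrophages alive. WT control libraries were at 4.46, 4.84 and 3.93 CPM and WT senescent libraries at 8.02, 9.59 and 8.36 CPM. KO control libraries were at 4.52, 5.05 and 4.29 CPM and KO senescent libraries at 10.1, 8.18 and 11.4 CPM. The senescent libraries did not overlap the controls, whereas the genotypes overlapped in either state. Il34 rose in WT by 0.97 (SE 0.15, edgeR adjusted p 8.69e-06) and in KO by 1.10 (SE 0.14, edgeR adjusted p 1.39e-06), and the interaction of 0.12 did not pass (SE 0.21, edgeR adjusted p 0.724). Its exons overlap those of 2 other annotated genes. Per exon length Csf1 exceeded Il34 by a mean ratio of 49.6 ± 12.3 in WT control, 35.2 ± 3.79 in WT senescent, 38.7 ± 6.94 in KO control and 41.0 ± 5.34 in KO senescent cells (SD, n = 3), with overlap between all groups but WT control and WT senescent. Csf1r itself, at 1.93 to 3.42 CPM, was low in every library. The 8 macrophage markers summed to between 8.56 and 16.2 CPM in all libraries, of which Ptprc, shared by white blood cells in general, made up to 9.52 CPM. Adgre1, Itgam, Aif1 and Tyrobp reached at most 0.39 CPM. Of the 4 tested, Lyz2 passed as higher in senescent cells of both genotypes (means of 0.351 and 1.96 CPM in WT, 0.191 and 2.86 CPM in KO), and Cd68 did in WT (1.75 and 3.0 CPM). The part of such cells in the results was not tested.

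Between genotypes among control cells, 3 members passed (Il1rn higher, Lif and Il11 lower in KO control than in WT control cells), where 13.0% of all genes passed, 8.07% higher and 4.96% lower. Without KO control 1 there were 5 that passed, with Clcf1 and Csf1 added, and 2 called in place of 1. Between genotypes in senescence, 4 passed (Lif and Csf1 higher, Il6 and Il1rn lower in KO), where 23.7% of all genes passed (11.9% higher, 11.8% lower), and 2 passed without WT senescent 2 or without KO senescent 3. Only Il1rn was called in each (2.54% of genes among controls and 3.48% among senescent cells). The medians of the 9 members were −0.25 and 0.12, and those of all genes 0.01 and −0.02.

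Receptor genes were counted in the same way. Of 13 receptor genes listed for these cytokines, 12 were tested. In WT cells 1 rose (Il11ra1) and 4 fell (Il6st, Il1r1, Il1rl1 and Sdc1), while of all genes 29.2% rose and 27.0% fell. In KO cells 2 rose (Il11ra1 and Cntfr) and 7 fell (Il6st, Lifr, Osmr, Il1r1, Il1rap, Il1rl1 and Sdc1), while of all genes 28.5% rose and 28.6% fell. No receptor gene was called by the edgeR test in either genotype, where 17.4% of all genes were called in WT and 18.8% in KO cells. Il1r1 in KO cells lay at the fold threshold and was called by limma-voom, without the filter on low counts, with either replicate block and without any 1 of 8 libraries (the 6 WT libraries, KO control 1 or KO senescent 2), and Cntfr by DESeq2 and without KO control 3, KO senescent 2 or KO senescent 3. The median of the 12 was −0.00 in WT and −0.46 in KO cells. The interaction passed for 8, all lower in KO (Il6st, Lifr, Osmr, Il11ra1, Il1r1, Il1rap, Il1rl1 and Sdc1), where 11.7% of all genes passed as lower, with a median of −0.41 beside −0.03 for all genes.

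**Figure D5:**
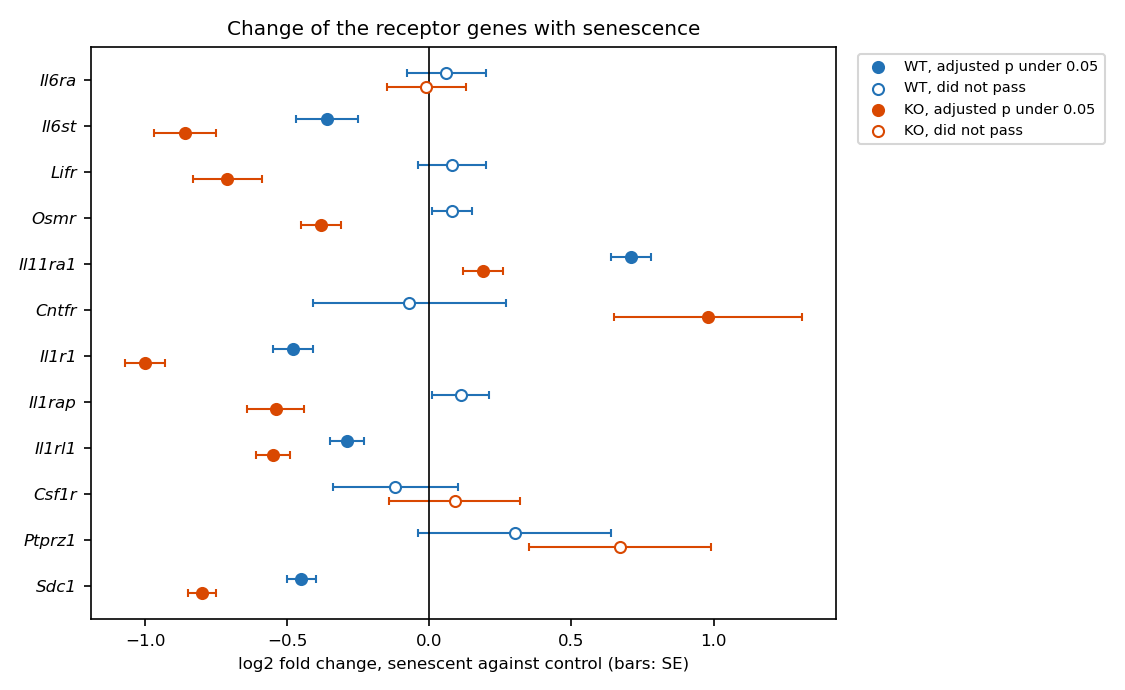
Log2 fold change of the 12 tested receptor genes, senescent against control, in WT (blue) and KO cells (orange), with SE as bars and filled points for an adjusted p under 0.05. For Il6st, Lifr, Osmr, Il11ra1, Il1r1, Il1rap, Il1rl1 and Sdc1 the KO point lies to the left of the WT point, while Il6ra and Csf1r lie near 0 in both.

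Il6st, the gp130 chain, was at 1344, 1272 and 1438 CPM in the WT control libraries. Its WT senescent libraries held 1017, 1080 and 1064 CPM, its KO control libraries 1405, 1600 and 1586 CPM and its KO senescent libraries 866, 973 and 684 CPM. It fell by 0.36 in WT (SE 0.11, edgeR adjusted p 0.012, and 0.0546 without WT control 3) and in KO cells by 0.86 (SE 0.11, edgeR adjusted p 1.97e-05). Its interaction of −0.51 (edgeR adjusted p 0.0325) did not pass without any 1 of 7 libraries (WT control 1 or 2, WT senescent 2 or 3, KO control 2 or 3, or KO senescent 1, up to 0.0806). Lifr, the LIF receptor chain, was at 21.5, 23.3 and 23.4 CPM in the WT control libraries. Its WT senescent libraries held 21.8, 22.7 and 27.7 CPM, its KO control libraries 19.2, 24.6 and 25.4 CPM and its KO senescent libraries 15.5, 15.4 and 11.7 CPM. Only the KO senescent libraries stood apart, and Lifr fell by 0.71 in KO cells (SE 0.12, edgeR adjusted p 0.000104). Its change in WT cells was +0.08 (edgeR adjusted p 0.601), with an interaction of −0.78 (SE 0.17, edgeR adjusted p 0.00396). Osmr, which pairs with gp130 for oncostatin M, had an interaction of −0.46 (SE 0.10, edgeR adjusted p 0.00219). Il11ra1, the IL-11 receptor, rose in WT by 0.71 and in KO by 0.19, the latter not without KO control 3 or KO senescent 2 (up to 0.197). Its exons overlap another gene and it has near-identical copies, so its counts are uncertain. Il6ra, the IL-6 receptor chain, was at 7.12 to 11.4 CPM and passed in neither genotype. Cntfr, the receptor chain that CLCF1 acts through, rose in KO cells by 0.98 (SE 0.33, edgeR adjusted p 0.0155), from a mean of 0.774 to 1.52 CPM, and did not pass without KO control 2 or KO senescent 1 (up to 0.0813).

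On the IL-1 side, Il1r1, the signalling receptor, was at 154 ± 4.71 CPM in WT control, 111 ± 2.29 in WT senescent, 168 ± 7.32 in KO control and 84.0 ± 10.9 in KO senescent cells (SD, n = 3). It fell 1.39-fold with senescence in WT (edgeR adjusted p 4.48e-06) and 2.0-fold in KO cells (edgeR adjusted p 1.01e-10), and the interaction was −0.52 (SE 0.10, edgeR adjusted p 0.000768). Il1rap, the accessory chain shared by the IL-1 and IL-33 receptors, fell by 0.54 in KO cells. Its change in WT cells was +0.11 (edgeR adjusted p 0.395), with an interaction of −0.66 (SE 0.15, edgeR adjusted p 0.00756). Il1rl1, which encodes the IL-33 receptor ST2 and its soluble form, was at 1726 to 2850 CPM. It fell in WT by 0.29 and in KO by 0.55, and its interaction of −0.26 (edgeR adjusted p 0.0299) did not pass without WT control 1 or 2, WT senescent 1, KO control 1 or KO senescent 2 (up to 0.105). Il1r1 and Il1rn thus both ended lowest in KO senescent cells. For IL-34, the alternative receptor Sdc1 fell in WT by 0.45 and in KO by 0.80, with an interaction of −0.35 (SE 0.07, edgeR adjusted p 0.00116), and Ptprz1 was at 0.496 to 2.24 CPM and did not pass.

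Downstream of gp130, 11 of 11 listed JAK-STAT genes were tested. In WT cells 2 rose (Jak1 and Socs2) and 3 fell (Stat3, Socs3 and Bcl3), and in KO cells 2 rose (Jak1 and Ptpn11) and 6 fell (Jak2, Tyk2, Stat3, Socs3, Pias3 and Bcl3). Of all genes 56.2% passed in WT and 57.1% in KO cells, and the 5 in WT were no more than that share. Socs3, the feedback inhibitor that STAT3 is known to induce, was at 69.3 ± 6.34 CPM in WT control, 33.6 ± 0.752 CPM in WT senescent, 71.0 ± 5.82 CPM in KO control and 25.9 ± 1.41 CPM in KO senescent cells (SD, n = 3). It fell by 1.04 in WT (edgeR adjusted p 8.75e-11) and in KO cells by 1.46 (edgeR adjusted p 4.75e-13). Lif and Il11 rose in both genotypes, while Il6 and Il6st fell in both, and the part of any of them in the fall of Socs3 was not tested. Without WT control 3 the WT fall of Socs3 was under 1. Bcl3, also a STAT3 target and an I-kappa-B family protein, fell by 1.05 and by 1.65, and was no longer called in WT without WT control 1 or WT senescent 2. Stat3 itself fell by 0.24 and by 0.68. The interaction passed for 8 of the 11 (20.9% of all genes), 7 of them lower in KO (Jak2, Tyk2, Stat3, Socs2, Socs3, Pias3 and Bcl3) and 1 higher (Ptpn11, the phosphatase SHP2, 0.40). The largest of these was that of Socs2, −1.16 (SE 0.21, edgeR adjusted p 0.000651), which rose by 0.83 in WT and had −0.33 in KO cells (edgeR adjusted p 0.0612). The interaction of Pias3, an inhibitor of STAT3, did not pass without WT control 1, WT senescent 2, KO control 2 or KO senescent 3 (up to 0.0668).

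Of 11 listed genes that carry or restrain the IL-1 signal, 10 were tested. In WT cells 4 rose (Irak2, Irak3, Tollip and Map3k7) and none fell, and in KO cells 4 rose (Irak2, Traf6, Tollip and Map3k7) and 4 fell (Myd88, Irak4, Il18bp and Tab2). Of all genes 56.2% and 57.1% passed, with 29.2% and 28.5% as higher. Irak2, a kinase of the receptor complex, rose most, by 0.80 in WT (SE 0.11, edgeR adjusted p 1.37e-06) and in KO cells by 1.17 (SE 0.10, edgeR adjusted p 4.92e-09). Tab2 was the 1 gene with an interaction that passed (−0.22, edgeR adjusted p 0.0433), and it did not pass without any 1 of 9 libraries, all but WT control 2, KO control 1 and KO senescent 2 (up to 0.147). Among 9 genes that process or release these cytokines, 8 were tested. In WT cells 4 rose and 3 fell (56.2% of all genes passed), in KO cells 1 rose and 2 fell (57.1%), and the interaction passed for 4 (20.9%). Casp1, the protease that activates IL-1 beta, had 11, 14 and 8 counts in WT control, 57, 60 and 35 in WT senescent, 16, 32 and 19 in KO control and 20, 19 and 16 in KO senescent libraries. The WT senescent libraries held the most. It rose by 1.94 in WT cells (SE 0.34, edgeR adjusted p 5.26e-05) and had −0.36 in KO cells (edgeR adjusted p 0.375), with an interaction of −2.30 (SE 0.48, edgeR adjusted p 0.00197). Casp4, its relative, went the same way at 0.70 and −0.12, with an interaction of −0.82 (SE 0.22, edgeR adjusted p 0.0102). Adam17, the sheddase that frees membrane CSF1 and IL-6 receptor, fell in WT by 0.32 and in KO by 0.66, with an interaction of −0.34, and Capn2, a calpain, had one of 0.41.

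Among 8 genes listed for control of cytokine mRNA, mostly of its decay (Nfkbiz encodes the nuclear protein I-kappa-B zeta, a transcription cofactor), 4 fell in WT cells (Zfp36l2, Rc3h1, Elavl1 and Nfkbiz), 5 fell in KO cells (Zfp36l1, Rc3h1, Elavl1, Arid5a and Nfkbiz) and none rose in either, where 27.0% and 28.6% of all genes fell. Zfp36l1 had an interaction of −0.37 (SE 0.08, edgeR adjusted p 0.00237) and Zfp36l2 one of 0.27 (SE 0.09, edgeR adjusted p 0.0282), both being proteins that bind AU-rich mRNA ends. That of Zfp36l2 did not pass without any 1 of 7 libraries (WT control 1 or 3, WT senescent 1 or 2, KO control 2 or 3, or KO senescent 3, up to 0.0945). Arid5a, known to protect Il6 mRNA, fell by 0.24 in KO cells, which did not pass without KO control 2 or KO senescent 3 (up to 0.0801). The fall of Elavl1 in KO cells (−0.20) did not pass without KO control 1 or KO senescent 2 (up to 0.103).

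Of 22 further cytokines of these and related families, 18 were in the tables and 9 were tested. In WT cells 5 rose (Ctf1, Csf2, Il7, Il15 and Kitl) and none fell, and in KO cells 5 rose (Csf2, Il7, Il15, Tslp and Kitl) and 1 fell (Il18). In either direction these shares were near the 56.2% and 57.1% of all genes that passed, while 29.2% and 28.5% of all genes rose. The rises in KO cells include Csf2 and Tslp, which the filter on low counts kept only through KO senescent cells, where they were highest. Their being tested was thus tied to a rise in KO cells, so the 5 rises there cannot be weighed against the 28.5%. The rises in WT cells include Csf2 too. The median log2 change of the 9 was 0.55 in WT and 0.91 in KO cells, and the KO median has the same limit. Kitl, the stem cell factor, was at 38.1, 32.7 and 38.5 CPM in the WT control libraries. Its WT senescent libraries held 69.2, 68.1 and 64.9 CPM, its KO control libraries 36.4, 38.1 and 34.2 CPM and its KO senescent libraries 100, 89.7 and 99.9 CPM. Its pattern was like that of Csf1, with a rise of 0.89 in WT (SE 0.07, edgeR adjusted p 4.6e-10), a rise of 1.41 in KO (SE 0.07, edgeR adjusted p 2.02e-13) and an interaction of 0.53 (SE 0.10, edgeR adjusted p 0.000627). Il15, which sustains natural killer cells, rose by 1.65 in WT (SE 0.24) and by 0.87 in KO cells (SE 0.23). Csf2, the gene of GM-CSF, had 2, 0 and 0 counts in WT control, 5, 11 and 5 in WT senescent, 1, 0 and 0 in KO control and 10, 14 and 17 in KO senescent libraries. It passed as higher in both genotypes (edgeR adjusted p 0.0116 in WT and 0.000176 in KO), in WT not without WT control 2 or WT senescent 2 (up to 0.0613), and control levels at the floor allow no fold. Only in KO senescent cells did all 3 libraries hold 10 counts or more of Csf2. The filter on low counts thus kept Csf2 through the group where it was highest, and its p-values add no support beyond these counts. Il18 fell by 0.93 in KO cells (SE 0.22, edgeR adjusted p 0.00114), against −0.07 in WT cells, and its interaction of −0.85 had an edgeR adjusted p of 0.0582. Tslp passed as higher in KO cells, at 0.178 to 0.644 CPM on average. It too held 10 counts or more in all 3 libraries of KO senescent cells only, so the same limit applies.

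As a description, the genes whose log2 CPM followed each member most closely over the 12 libraries were taken from 13880 genes. These libraries share their 4 groups, so such likeness is largely that of the group means. For Lif they were Wnt11 (Pearson r 0.993), Pmepa1 (0.990) and Pwwp2b (0.990), and for Il11 Pdgfb (0.979) and Thumpd3 (0.977). Wnt11, a secreted WNT ligand, had group means of 4.78 CPM in WT control, 11 in WT senescent, 2.92 in KO control and 19.5 in KO senescent cells, the same order as Lif. For Il6 they were Isoc2a (0.991), Ptx3 (0.981) and Gcnt2 (0.979). Ptx3, which encodes the secreted pentraxin PTX3, had means of 983 CPM in WT control, 547 in WT senescent, 834 in KO control and 419 in KO senescent cells. For Il1rn they were Ephb3 (0.985), Twsg1 (0.985) and Lrrc17 (0.983), for Clcf1 Dusp5 (0.953), Rabggtb (0.920) and Abhd17a (0.918), for Csf1 Ifrd1 (0.991), Gtpbp4 (0.988) and Esd (0.987), and for Il34 Tk2 (0.984), Atp6v1c1 (0.980) and Dpyd (0.978).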

How the data were processed

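The authors trimmed paired reads with Trimmomatic 0.36, mapped them with STAR 2.5.2b to GRCm38 and counted uniquely mapped reads over exons with featureCounts. What was deposited were these counts, unscaled, in 2 tables, 1 per genotype. Use of strand and the annotation release are not given in the sources used here. Unique mapping lowers the counts of genes with near-identical copies.

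Of 49315 gene identifiers, 49056 were matched to GENCODE M21 (GRCm38), which gave symbols, coordinates and exon lengths. Groups were taken from the sample titles. Counts of the 12 libraries were joined, filtered with filterByExpr (17416 genes left), TMM-scaled and fitted with 1 mean per group by edgeR 4.0.16 (R 4.3.3), and robust quasi-likelihood F-tests were run for 5 comparisons with Benjamini-Hochberg adjustment over all genes tested. The script was tested on simulated data. Levels per length divide CPM by kilobases of annotated exon. Replicates differed by more than counting noise (chi-square per gene 3.03 to 17.4, where counting noise gives 1). The reads carried no molecular identifiers, so the floor of 3 counts covers counting error only.

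Alternatives were size factors by relative log expression (RLE), no filter, only the groups compared, limma-voom (limma 3.58.1), DESeq2 1.42.0, the replicate number as a block, and each library left out in turn. The members and the gene lists were chosen with earlier results of these data known. The text names all members, receptors with a mean of at least 1 CPM in a group, and from each other list the genes that passed the interaction and the 2 largest rises and falls, of which the main ones are given. A few genes that the lists or the rule would name are not reported here and were left out of the counts of their lists. Genes like a member had a mean of at least 1 CPM, and 0.5 CPM was added before logs.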

Additional observations from a re-analysis of the deposited data

Results flagged for a closer look

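The genes below were taken for a closer look because the change with senescence differed between the genotypes by the test of the interaction (KO less WT, log2 scale). Of the members these were Lif (1.60), Il11 (1.20), Csf1 (0.68), Clcf1 (0.30) and Il1rn (−2.53). Of the receptors they were Lifr (−0.78), Il1rap (−0.66), Il11ra1 (−0.52), Il1r1 (−0.52), Il6st (−0.51), Osmr (−0.46), Sdc1 (−0.35) and Il1rl1 (−0.26). Of the JAK-STAT genes they were Socs2 (−1.16), Bcl3 (−0.60), Jak2 (−0.43), Stat3 (−0.43), Socs3 (−0.41), Tyk2 (−0.36), Pias3 (−0.31) and Ptpn11 (0.40). Among the other lists they were Casp1 (−2.30), Casp4 (−0.82), Zfp36l1 (−0.37), Adam17 (−0.34), Tab2 (−0.22), Zfp36l2 (0.27), Capn2 (0.41) and Kitl (0.53). The chondrocyte markers were also lower in KO by this test, 5 of 5, where 11.7% of all genes were. Their part in these values was not tested.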

How the results depend on the processing

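In every setting other than leaving out a library, the counts of members that passed or were called stayed within 1.5 times those reported. With 1 library left out, the members called in WT senescence ranged from 1 to 2, those that passed between control cells of the genotypes from 2 to 5 and were called from 1 to 2, and those that passed between senescent cells from 2 to 5. Among the values for members, directions turned only for low or near-zero changes that never passed, whose leave-one-out ranges were −0.23 to 0.63 (Il1a in WT), −1.11 to 0.32 (Il1a in KO), −1.35 to 0.08 (Il1a, interaction), −0.55 to 0.78 (Il1a, KO against WT controls), −0.39 to 0.05 (Il33 in KO), −0.28 to 0.18 (Il33, KO against WT senescent cells) and −0.0022 to 0.14 (Il34, KO against WT controls). The cause was not tested.

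Libraries that share a replicate number did not deviate together (correlations from −0.125 to 0.127). This shows no pairing by number but cannot exclude one whose effect is small. With the replicate number as a block, Il11 between controls was −0.76 (edgeR adjusted p 0.0532) and the 5 members that passed the interaction still numbered 5, and with a block within each genotype 4, as Clcf1 had an edgeR adjusted p of 0.0515. With the block the interaction also did not pass for Il6st (0.0515) and, with it within each genotype, for Zfp36l2 (0.0511) and Tab2. The block within each genotype could not be fitted for KO against WT. At about 20 counts or fewer per library, as for Il1a, depth limits what can be seen.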
